A study of Homo sapiens with 12 samples.

Results

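The regions described here are the stretches of the long arm of chromosome 8 that carried an H3K27ac peak in at least 1 of 8 libraries from 5 untreated carcinoma cell lines. Overlapping peaks of the 8 lists were merged (at least 1 bp shared), and regions from 60 Mb to the end of the chromosome were kept, without the stretch from 127 to 131 Mb that holds MYC. This gave 1963 of 70648 regions in all, over 82.4 Mb of hg19. The short arm below 43 Mb, with 907 regions, served as the comparison arm.

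H3K27ac is acetylation of lysine 27 on histone H3, a mark that lies at active promoters and active enhancers. The antibody enriches chromatin that carries the mark, and a peak caller lists where reads pile up. The long arm of chromosome 8 is among the arms most often gained in carcinomas of the lung and of the head and neck, and the short arm among those often lost. Beyond MYC, 8q holds epithelial regulators such as GRHL2 and ESRP1, the LY6 family of surface proteins, growth genes such as PTK2 and YWHAZ, and many genes that are active in a few tissues only. DNA copy number was not analysed here.

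H358 and H2009 are lung adenocarcinoma lines with 2 libraries each. HCC95, from squamous cell lung carcinoma, has 1 library, and Ishikawa, from endometrial carcinoma, has 2. BICR31 has 1 library: the series text calls it a head and neck squamous line, which is followed here, while its sample label gives lung adenocarcinoma. All were grown in RPMI with serum, without treatment, and all were precipitated with the same antibody. Nothing in the labels says that numbered libraries came from separate cultures, so p-values measure only how these libraries spread, and that spread may be technical. H2009 also has the libraries Empty, Control, e3KRAB1 and e3KRAB2 (names as labelled), 4 lists that entered no comparison.

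The lists held 23400 to 27311 peaks in 7 libraries and 42148 in BICR31. Read depth is unknown. The H358 and H2009 lists are in narrowPeak form, HCC95 and BICR31 in broadPeak form and Ishikawa in a 5-column form, so form and line cannot be told apart except within the pairs H358 and H2009, and HCC95 and BICR31. Marker genes were read by peaks over the gene. For TP63 and GRHL2 the length used differed by more than 5 kb from that in the gene table, so their counts are less certain. EPCAM and GRHL2, both epithelial, carried peaks in all 8 libraries. The squamous marker KRT5 carried 2 peaks in HCC95, 1 in BICR31 and 1 in Ishikawa replicate 1, and none in H358 or H2009. The other squamous markers did not follow that order. TP63 carried 3 and 2 peaks in H358, 2 and 3 in H2009, 8 in HCC95, 7 in BICR31 and 7 and 7 in Ishikawa. SOX2 carried 2 and 2 in H358, 1 in H2009 replicate 2, 2 in HCC95, 1 in BICR31 and none in Ishikawa. NKX2-1, a regulator of lung adenocarcinoma, carried 2 and 3 peaks in H358, 1 in BICR31 and none in H2009, HCC95 or Ishikawa. SFTPB, a surfactant gene, carried none in any library, and PAX8, a gene of the endometrium, carried peaks in all 8. The labelled lung adenocarcinoma line H2009 therefore showed, of the 3 lung markers, only NAPSA, with 1 and 2 peaks. NAPSA did not set the lung adenocarcinoma lines apart. It carried 2 and 1 peaks in H358, 1 and 1 in Ishikawa and 2 in BICR31, and none in HCC95. VIM, a mesenchymal gene, carried 1 peak in each library except H358 replicate 2 and H2009 replicate 2, which had none. PTPRC, a blood cell gene, carried 3 peaks in H358 replicate 1, 4 and 3 in Ishikawa and 4 in BICR31. What part these peaks have in the results was not tested.

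H358 gave the largest share of its regions to 8q and Ishikawa the smallest. The share was 3.18% and 3.37% in the H358 libraries (mean 3.28% ± 0.137, SD, n = 2). It was 2.63% and 2.65% in H2009 (2.64% ± 0.0159, SD, n = 2), 2.43% in HCC95, 2.25% and 2.24% in Ishikawa (2.25% ± 0.0027, SD, n = 2) and 2.68% in BICR31. Both H358 libraries lay above the other 6, and both Ishikawa libraries lay below the other 6. In counts, 8q held 694 and 729 regions in H358, 581 and 573 in H2009, 565 in HCC95, 1116 in BICR31 and 521 and 518 in Ishikawa.

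**Figure D1:**
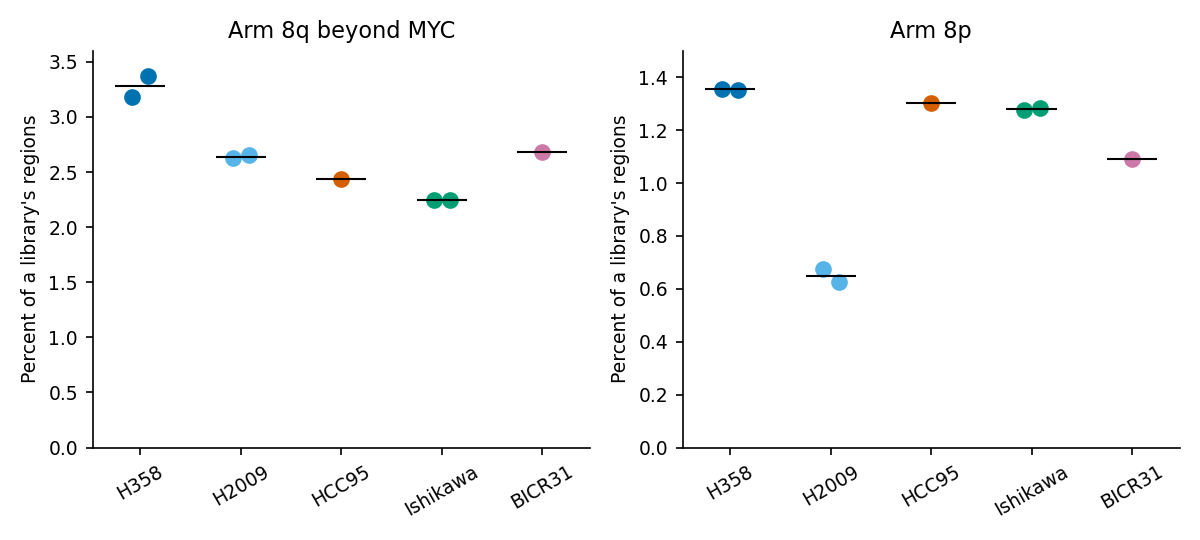
Percent of a library's regions that lie on 8q beyond MYC (left) and on 8p (right), 1 point per library and a bar at each line's mean; HCC95 and BICR31 have 1 library. The H358 points on 8q, at 3.18 and 3.37, sit above all others, and the H2009 points on 8p, at 0.674 and 0.624, sit below all others.

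The shares were compared in a limma fit over 24 features, which were 8q, 8p and the other chromosomes, with Benjamini-Hochberg adjustment. The spread was estimated over all 8 libraries, and the single HCC95 and BICR31 libraries were assumed to vary like the others. H358 minus the mean of the other 4 lines was 0.39 on the log2 scale for 8q (SE 0.025, limma adjusted p = 0.000108), the highest of the 24 features. The short arm was second in the same contrast, at 0.38 (SE 0.030, limma adjusted p = 0.000223). The mean of the other 4 lines takes in H2009, which was low on 8p. The mean 8p share was 1.35% in H358, 0.649% in H2009, 1.30% in HCC95, 1.28% in Ishikawa and 1.09% in BICR31. A high rank in this contrast was therefore not particular to 8q, but on 8p H358 lay close to HCC95 and Ishikawa. Of the 24 features, 75% passed in that contrast, so a pass is common there. Within the narrowPeak lists, H358 minus H2009 was 0.31 (SE 0.030, limma adjusted p = 0.000454), the fourth highest of 24, with 83.3% of features passing. Ishikawa minus the others was -0.29 (SE 0.025, limma adjusted p = 0.000664), the lowest of 24, with 79.2% passing.

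The other lines stood nearer the middle of the features. HCC95 minus the others was -0.14 (SE 0.032, limma adjusted p = 0.0115), rank 19 of 24, with 66.7% of features passing. HCC95 minus BICR31, within the broadPeak lists, was -0.14 (SE 0.043, limma adjusted p = 0.0323) with 62.5% passing. That call was lost without either H2009 library or either Ishikawa library, with limma adjusted p-values from 0.0518 to 0.0678. It was lost too when only the higher-ranked 50% of each list was used, where the difference was -0.0066 (limma adjusted p = 0.967). H2009 (0.0039, limma adjusted p = 0.919, 79.2% of features passing) and BICR31 (0.03, limma adjusted p = 0.431, 54.2% passing) did not pass against the other lines. When a region counted for a library only if the library's peaks covered at least 50% of it, the BICR31 difference turned to -0.14 (limma adjusted p = 0.0380).

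The difference between H358 and H2009 was larger on the short arm than on the long arm, though the arms were not tested against each other. Regions on 8p took 1.36% and 1.35% of the H358 libraries and 0.674% and 0.624% of the H2009 libraries. They took 1.30% of HCC95, 1.28% of both Ishikawa libraries and 1.09% of BICR31. H358 minus H2009 on 8p was 1.06 (SE 0.037, limma adjusted p = 1.31e-05), the highest of 24 features, against 0.31 on 8q. For H2009 against the other lines 8p was the lowest feature, at -0.95 (limma adjusted p = 9.65e-06). The density of regions per Mb on 8q over that on 8p was 2.04 and 2.22 in H2009. It was 1.22 and 1.30 in H358, 0.974 in HCC95, 1.28 in BICR31 and 0.919 and 0.914 in Ishikawa. As a part of a line's regions on both arms, 8q held 84.5% in H2009 (95% Wilson interval 81.1 to 87.5, 415 of 491 regions). It held 72.7% in H358 (69.3 to 75.9), 71.1% in BICR31 (68.8 to 73.3), 65.1% in HCC95 (61.9 to 68.2) and 64.4% in Ishikawa (60.8 to 67.9). These intervals cover counting error only.

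Along the arm, regions were counted in 2 Mb windows, and the log2 share of each window was fitted with limma over 1355 windows of the whole genome that held at least 3 regions on average. On 8q, 37 windows were tested. The window from 101 to 103 Mb, which holds GRHL2, YWHAZ and PABPC1, was among the fullest. It held 43 and 61 regions in H358, 36 and 42 in H2009, 43 in HCC95, 82 in BICR31 and 33 and 31 in Ishikawa. The last tested windows, from 143 Mb to the end, were also dense: from 143 to 145 Mb each library held between 36 and 58 regions, and from 145 Mb to the end between 41 and 53. In both Ishikawa libraries, in HCC95 and in replicate 1 of H358 and of H2009, the window from 145 Mb was fuller than the one of GRHL2.

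**Figure D2:**
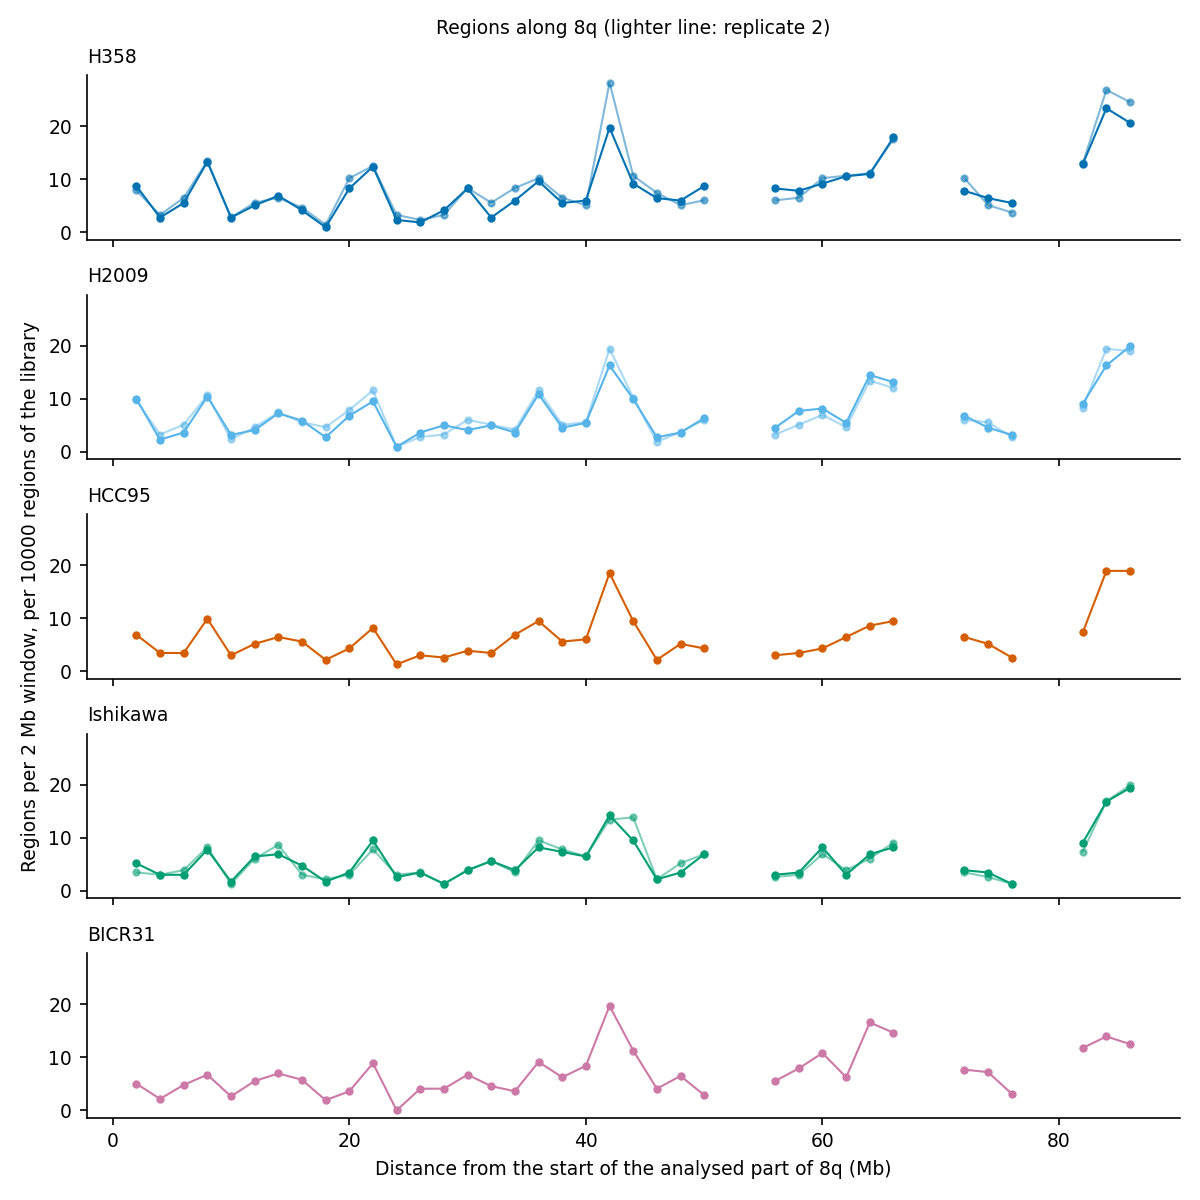
Regions per 2 Mb window per 10000 regions of the library along 8q, by distance from the start of the analysed stretch, 1 panel per line and a lighter line for replicate 2; gaps are windows not tested or left out with MYC. All 5 lines have high counts near 42 Mb from the start and at the far end, and BICR31 holds 0 regions in the window near 24 Mb from the start.

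H358 minus H2009 was positive in 27 of the 37 windows, with a median of 0.27 on the log2 scale against -0.02 over all windows tested. In that contrast 10 windows passed, 9 higher in H358 and 1 lower. Across the genome 19.3% of windows passed (limma, adjusted p under 0.05), 9.45% higher and 9.82% lower, and on 8q 27.03% did. The largest difference was in the window from 105 to 107 Mb, which holds ZFPM2, a cofactor of GATA factors. It held 14 and 16 regions in the H358 libraries and 6 and 4 in the H2009 libraries (log2 difference 1.53, SE 0.24, limma adjusted p = 0.00853). The window from 121 to 123 Mb holds COL14A1, a collagen of fibril surfaces, and HAS2, a hyaluronan synthase. It held 23 and 23 regions in H358 against 12 and 10 in H2009 (1.05, SE 0.17, limma adjusted p = 0.00927).

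Windows with many regions passed with smaller differences. The window from 125 to 127 Mb, with TRIB1, MTSS1 and SQLE, held 39 and 38 regions in H358 and 29 and 26 in H2009 (0.49, SE 0.10, limma adjusted p = 0.0150). The window from 143 to 145 Mb, with LY6E, LY6K, LY6D and FAM83H, held 51 and 58 regions in H358 and 36 and 42 in H2009 (0.49, limma adjusted p = 0.0190). The window from 141 to 143 Mb holds PTK2, the focal adhesion kinase, and had 28 and 28 regions against 20 and 18 (0.56, limma adjusted p = 0.0242).

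The other 5 windows that passed held fewer regions. From 93 to 95 Mb, around RUNX1T1, H358 held 13 and 18 and H2009 8 and 9 (0.82, limma adjusted p = 0.0310). From 89 to 91 Mb, with NBN, RIPK2 and MMP16, the counts were 18 and 18 against 9 and 13 (0.72, limma adjusted p = 0.0446). From 115 to 117 Mb, with TRPS1, they were 18 and 13 against 10 and 7 (0.84, limma adjusted p = 0.0468), and from 83 to 85 Mb, with no listed gene, 5 and 7 against 2 and 2 (1.37, limma adjusted p = 0.0242). The single window lower in H358 was the one from 77 to 79 Mb, around ZFHX4, a zinc finger homeobox factor, with 2 and 3 regions against 6 and 10 in H2009 (-1.47, SE 0.34, limma adjusted p = 0.0244). The number of windows that passed depended on single libraries. It was 0 without H358 replicate 2 (limma, with 14 windows at an unadjusted p under 0.05), 2 without H2009 replicate 2, and 5 without H358 replicate 1, H2009 replicate 1 or either Ishikawa library. The same fit then called 5.28% of windows across the genome without H358 replicate 2.

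**Figure D3:**
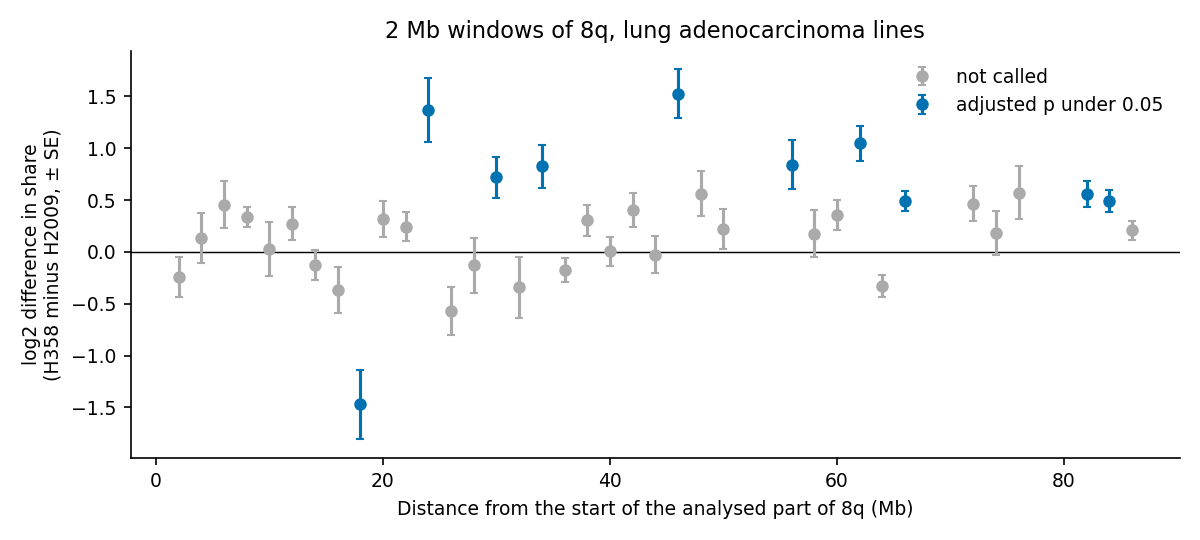
Log2 difference in share of regions, H358 minus H2009, for the 37 tested 2 Mb windows of 8q, with SE bars, by distance from the start of the analysed stretch; blue points passed the limma test. Of the 10 blue points 9 lie above 0, the highest at 1.53, and 1 lies at -1.47.

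Against the mean of the other 4 lines, H358 was higher in 18 windows of 8q and lower in 1, where 15.6% of windows were higher and 14% lower across the genome (29.6% in all). The median difference on 8q was 0.42 against -0.01 over all windows. The strongest by p was the window of TRIB1 and MTSS1 from 125 to 127 Mb (0.67, SE 0.079, limma adjusted p = 0.00221). It was followed by that of MYBL1, COPS5, CRH and CPA6 from 67 to 69 Mb (0.62, limma adjusted p = 0.00315), where H358 held 29 and 29 regions and the other libraries 18 to 28. The window of HEY1, a Notch target, IL7 and STMN2 from 79 to 81 Mb (1.04, limma adjusted p = 0.00349) held 18 and 22 regions in H358 and 7 to 17 elsewhere. The windows of ZFPM2 (1.36) and of COL14A1 and HAS2 (1.02) passed again. The window lower in H358 was the one from 85 to 87 Mb, with E2F5 and CA1, with 4 and 5 regions in H358 and 6 to 17 in the other libraries (-0.66, limma adjusted p = 0.0396). Fewer of the 37 windows passed with either H358 library or Ishikawa replicate 2 left out. Without either H358 library fewer windows passed across the genome as well.

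Ishikawa was lower in 16 windows of 8q and higher in 3, where 19.6% of windows were higher and 19.1% lower across the genome (38.7% in all). The median was -0.29 on 8q against 0.03 over all windows. The strongest by p was the window from 123 to 125 Mb, with FAM83A, an adaptor in growth factor signalling, ZHX2 and DERL1. Ishikawa held 16 and 14 regions there, below the 20 to 69 of the other 6 libraries (-0.89, SE 0.088, limma adjusted p = 0.00163). The next windows that were lower in Ishikawa were those of TRIB1 and MTSS1 (-0.60, limma adjusted p = 0.00207), of COL14A1 and HAS2 (-0.94, limma adjusted p = 0.00318) and of ASAP1 and ADCY8 from 131 to 133 Mb (-0.94, limma adjusted p = 0.00318). The window from 97 to 99 Mb, with MTDH, LAPTM4B, GDF6, SDC2 and MATN2, was higher in Ishikawa, with 17 and 18 regions against 10 to 14 in H358, H2009 and HCC95 and 26 in BICR31's longer list (0.42, limma adjusted p = 0.0354). That of RSPO2, ENY2 and TRHR from 109 to 111 Mb was higher as well (0.50, limma adjusted p = 0.0414). With Ishikawa replicate 1 or replicate 2 left out, fewer windows of 8q passed, but 1 library was then left for the line.

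BICR31 had 7 windows, 2 higher and 5 lower, where 7.6% were higher and 11.3% lower across the genome (18.9% in all). The higher ones were the window of FAM83A, ZHX2 and DERL1, with 69 regions (0.76, SE 0.11, limma adjusted p = 0.00596), and that of MAL2, DEPTOR, EXT1, TNFRSF11B and CCN3 from 119 to 121 Mb, with 45 (0.60, limma adjusted p = 0.0370). The lower ones included the end of the arm from 145 Mb, with HSF1 and RPL8, where BICR31 held 52 regions of a list far longer than the others, which held 41 to 53 (-0.69, limma adjusted p = 0.00495). From 83 to 85 Mb BICR31 held 0 regions while the other libraries held 2 to 7. The fold there depends on the value added before taking logs, so no size is given, and the H358 and Ishikawa calls in that window draw on the same 0. Equal lengths of list left 2 windows, with 11.9% called across the genome. Fewer than 7 were left without either Ishikawa library.

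H2009 and HCC95 had few windows on 8q. H2009 was higher in 4 and lower in 0, where 16.2% of windows were higher and 13.4% lower across the genome (29.5% in all). These were the windows of FAM83A, ZHX2 and DERL1 (0.46, limma adjusted p = 0.00850), of CHD7 and ASPH from 61 to 63 Mb (0.72, limma adjusted p = 0.0153), of HEY1, IL7 and STMN2 (0.64, limma adjusted p = 0.0162) and of ZFHX4 (0.96, limma adjusted p = 0.0392). At an unadjusted p under 0.05, limma gave 4 lower windows. With H2009 replicate 1 or replicate 2 left out the count was 0 (6 and 9 windows at an unadjusted p under 0.05), and without HCC95 it was 7. HCC95 was lower in 2 windows and higher in 0, where 8.63% were higher and 8.93% lower across the genome (17.6% in all). These were the window of MAL2, DEPTOR, EXT1 and TNFRSF11B, with 10 regions against 15 to 45 (-0.99, limma adjusted p = 0.0111), and that of TRIB1 and MTSS1, with 22 (-0.44, limma adjusted p = 0.0272). At an unadjusted p under 0.05, 1 window was higher in HCC95. The HCC95 count was 1 without either H358 library or Ishikawa replicate 2. Between HCC95 and BICR31, 6 windows passed, 3 in each direction, where 10.8% passed across the genome (5.9% higher and 4.94% lower). Higher in HCC95 were the windows of MYBL1 and COPS5 (0.56), of HSF1 and RPL8 (0.60) and the one from 83 to 85 Mb. The call from 83 to 85 Mb rests on 0 regions in BICR31 against 3 in HCC95, so no size is given. The windows of MAL2 and EXT1 (-1.27), of FAM83A (-0.92) and of TRIB1 (-0.61) were lower in HCC95. Without either H2009 library or Ishikawa replicate 1 that count was 1, and without Ishikawa replicate 2 it was 3.

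Most regions belonged to 1 line, on 8q as over the genome. Of the 1963 regions, 1129 (57.5%) had a peak in 1 line, where the share was 55.4% over all regions and 58.8% on 8p. A single library held 968 (49.3%), against 47.7% over all regions and 49.6% on 8p. All 5 lines had a peak in 246 (12.5%), against 14.7% and 9.59%. All 8 libraries had one in 223 (11.4%), against 12.1% and 5.40%. Regions of all 8 libraries had a median merged width of 2144 bp, and regions of 1 line 425 bp, but merging widens a region that many lists share. The Jaccard index was taken over bases on 8q, as bases called in both libraries over bases called in either. It averaged 0.521 for the 3 pairs of libraries of the same line (0.430 to 0.627). For the 25 pairs of different lines it averaged 0.259 (0.180 to 0.381). The ranges did not overlap on 8q. On 8p the index averaged 0.413 for libraries of the same line (0.236 to 0.599). For different lines it averaged 0.161 there (0.062 to 0.244), and these 8p ranges overlapped. Peak width enters this index, and libraries of the same line also share a file form.

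Specific regions of a line are those with a peak in each of its libraries and in none from the other 4 lines. H358 had 61 such regions among its 515 on 8q, which is 11.8% (95% Wilson interval 9.33 to 14.9), where 5.78% of all its regions were specific. That was the second highest of 24 features for H358, after chromosome 4 at 12.02%. H2009 had 16 among 415, 3.86% (2.39 to 6.17), where 5.68% of all its regions were specific. In every line but H358 the interval on 8q held the value over all regions. HCC95 had 100 of 565, 17.7% (14.8 to 21.1), against 18.8%. Ishikawa had 84 of 440, 19.1% (15.69 to 23.02), against 18.1%. BICR31 had 419 of 1116, 37.5% (34.8 to 40.4), against 37%. On 8p the share was 9.84% in H358 (6.39 to 14.9), 1.32% in H2009 (0.233 to 7.08), 25.1% in HCC95 (20.5 to 30.3), 25.9% in Ishikawa (20.8 to 31.8) and 35.2% in BICR31 (31.0 to 39.7). The H358 interval thus lay above the line's value over all regions on both arms. On 8p the HCC95 and Ishikawa intervals lay above theirs. These intervals cover counting error only, not the spread between libraries, since regions are not replicates of a line.

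The H358 share moved with the rules more than its ratio did. With either H358 library left out it was 25.14% or 25.04%, with 15.3% or 15.7% over all regions, which leaves ratios of 1.64 and 1.59 against 2.05 with both. With the higher-ranked 50% of each list it was 6.67% on 8q and 4.66% over all regions, a ratio of 1.43. With at least 50% of a region covered the ratio was 1.11. Over all settings run, the ratio for H358 lay between 1.11 and 2.10, and that for H2009 between 0.618 and 1.07. The H2009 share was 13.4% without its replicate 1, 13.1% without its replicate 2 and 6.81% without BICR31. Over all regions of H2009 it was 14.4%, 15.9% and 9.76% in these settings. HCC95 without BICR31 had 28.3% on 8q and 30.3% over all regions.

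**Figure D4:**
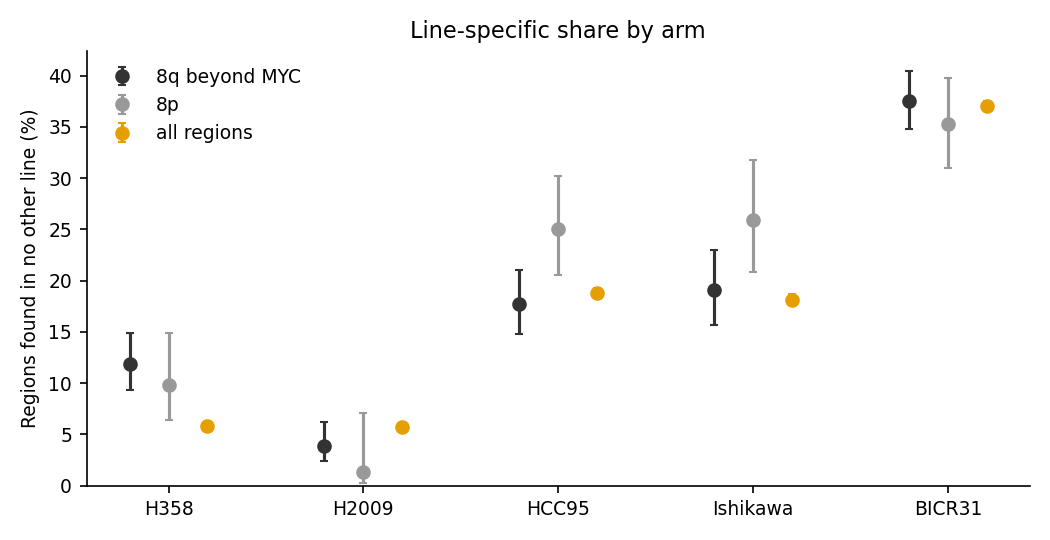
Percent of a line's regions that no other line has, on 8q beyond MYC, on 8p and over all regions, with 95% Wilson intervals. The H358 interval on 8q, from 9.33 to 14.9, lies above the line's value over all regions, 5.78, and the BICR31 values lie between 35.2 and 37.5.

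Their median width was 431 bp in H358, 511 bp in H2009, 658.5 bp in HCC95, 618 bp in BICR31 and 1617 bp in Ishikawa, whose list has the widest peaks. The rank of a peak within its list was taken as a percentile of the authors' fold (of the authors' score in Ishikawa), where 100 is highest. The median rank of the specific regions was 38.9 and 34.0 in H358, 48.6 and 58.7 in H2009, 28.5 in HCC95, 33.4 in BICR31 and 32.2 and 28.9 in Ishikawa. The densest 1 Mb of BICR31-specific regions held 23 of them, chr8:123695234-124643365, in the window of FAM83A. The densest of HCC95 held 8, chr8:101655285-102258683, that of Ishikawa 7, chr8:73163830-74147180, and that of H358 6, chr8:143315965-144252481, in the window of the LY6 genes. No 1 Mb held more than 2 H2009-specific regions.

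Among the H358-specific regions the highest by rank was chr8:93115026-93115570, which lies over the start of RUNX1T1, a transcriptional co-repressor. It covered 387 bp in replicate 1 and 545 bp in replicate 2, at the 77.9th and 91.4th percentiles of the lists. The second by rank, chr8:67141208-67141688, lay 50.4 kb from the start of CRH, at percentiles 86.8 and 64.8. The widest was chr8:110274834-110275702, with 869 bp, at 70.9 kb from the start of ENY2. The widest H2009-specific region was chr8:95037391-95038114, with 724 bp. The highest by rank were chr8:95092216-95092900, at percentiles 75.5 and 90.2, and chr8:61835181-61835849, at 81.6 and 80.5.

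HCC95-specific regions were widest at chr8:60528492-60530979 (2488 bp), chr8:94833837-94835894 (2058 bp) and chr8:68587668-68589442 (1775 bp, 69.2 kb from the start of CPA6). These wide regions were low in the list, at percentiles 3.84, 5.65 and 15.8. The highest by rank was a short one, chr8:125907963-125908364, 402 bp at percentile 90.1. Ishikawa-specific regions were widest at chr8:103090473-103097288 (6816 bp), chr8:145725305-145730364 (5060 bp) and chr8:119877747-119882264 (4518 bp, 82.1 kb from the start of TNFRSF11B). The highest by rank was chr8:137542044-137543859, at percentiles 81.3 and 89.2, followed by chr8:144436246-144438842, 73.8 kb from the start of MAFA, at 72.6 and 83.1. BICR31-specific regions were widest at chr8:118620797-118623591 (2795 bp) and chr8:124540083-124542751 (2669 bp). The highest by rank was chr8:143718603-143718874, 272 bp at percentile 97.9, which lies 62.7 kb from the start of LY6K. The next, chr8:121206003-121206488, lay 68.7 kb from the start of COL14A1, at percentile 94.1. Width and rank thus picked different regions in every line but H2009, where chr8:95092216-95092900 and chr8:61835181-61835849 were picked by both.

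A region was a pair's own with a peak in every library of both lines and in no other library. Lines with 1 library, HCC95 and BICR31, meet that rule more easily. The pair of lines with most regions of its own on 8q was HCC95 with BICR31, the 2 squamous lines, with 56. As a share of regions that belong to either line alone or to the pair alone this was 9.74% on 8q and 11.2% over the genome. The 2 lung adenocarcinoma lines shared 14 such regions, 15.4% on 8q and 16.1% over the genome. H358 with BICR31 had 22, which is 4.38% on 8q and 2.33% over the genome. Ishikawa with BICR31 had 14, which is 2.71% on 8q and 3.82% over the genome. H2009 with BICR31 had 12, which is 2.68% on 8q and 3.42% over the genome. The 5 pairs left had 2 to 4, with shares from 1.60% to 2.91% on 8q and from 1.07% to 3.83% over the genome. The widest region of the lung adenocarcinoma pair, chr8:145925107-145926802, ranked high in all 4 lists, at percentiles 89.2, 87.1, 94.3 and 91.5. It lies 91.0 kb from the start of the ribosomal protein gene RPL8. The widest of the squamous pair, chr8:141734236-141738106, covered 663 bp in HCC95 and 3871 bp in BICR31, at percentiles 18.5 and 0.197. The widest of H2009 with BICR31, chr8:132261819-132263332, ranked at 87.4 and 90.4 in H2009 and 40.5 in BICR31.

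Of the 223 regions with a peak in all 8 libraries, the 3 widest are named. The merged width of the first and the second came mostly from Ishikawa replicate 1, whose peaks covered 6645 and 5268 bp of them. The first, chr8:144816908-144823552 (6645 bp), lay 0.937 kb from the start of FAM83H, a gene that organises keratin filaments. The second, chr8:95650688-95656103 (5416 bp), covered the start of ESRP1, which directs epithelial splicing, and the third, chr8:120217776-120222658 (4883 bp), covered the start of MAL2, a protein of apical transport. By fold, the MAL2 region stood at percentiles 15.2 and 3.64 in H358 and 5.02 and 4.08 in H2009. HCC95 had it at 10.7 and BICR31 at 0.230. By score it stood at 92.12 and 94.98 in Ishikawa. Ranks by fold and by score were therefore not compared between lines.

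Genes of 8q were read from a list of 108 in 6 groups by role, of which 92 could be placed on hg19. A gene was counted in a line when every library of the line had a peak within 5 kb of its start. This was so for 67 of the 92 in H358 (72.8%), 58 in H2009 (63%), 61 in HCC95 (66.3%) and 66 each in Ishikawa and BICR31 (71.7%). All 8 libraries had such a peak at 52 genes and no library at 14. At 22 genes every library of at least 1 line had a peak and no library of another did. A list with 1 library meets both conditions more easily than one with 2.

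All 15 placed housekeeping genes carried a peak in all 8 libraries, among them RPL8, PABPC1, PUF60 and EEF1D. Of 16 growth and cell cycle genes 14 did. YWHAZ, a 14-3-3 protein, had 2219 and 2153 bp of peak within 5 kb of its start in H358, 1426 and 1728 in H2009, 2373 in HCC95, 3033 in BICR31 and 4562 and 3976 in Ishikawa. PTK2 carried 1462 to 2299 bp in every library and, within 100 kb, 7 and 9 regions in H358, 3 and 2 in H2009, 4 in HCC95, 9 in BICR31 and 4 and 3 in Ishikawa. RIPK2, a kinase of innate immune signalling, and LAPTM4B, a lysosomal membrane protein, also had a peak in all 8.

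MTSS1, an actin and membrane binding protein, was the growth gene that set lines apart. It had no peak in either H358 library or in H2009 replicate 1, 443 bp in H2009 replicate 2, 1269 in HCC95, 1621 in BICR31 and 2584 and 1959 in Ishikawa. Its window, from 125 to 127 Mb, had the smallest p of the 8q windows in H358 against the other lines, with a difference of 0.67 that was below those of several other windows.

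Of 10 placed epithelial and surface genes, 6 carried a peak in all 8 libraries: GRHL2, NDRG1, FAM83H, MAL2, ESRP1 and ST3GAL1. GRHL2, a grainyhead factor that maintains epithelial identity, had 1561 and 1563 bp in H358, 1023 and 1411 in H2009, 1466 in HCC95, 2894 in BICR31 and 4257 and 3896 in Ishikawa. Within 100 kb of its start lay 18 regions, 4 and 9 of them in the H358 libraries, 3 and 4 in H2009, 4 in HCC95, 11 in BICR31 and 6 and 6 in Ishikawa. The other 4 set lines apart, and 3 of them were at 0 in Ishikawa. LY6D, a marker of stratified epithelium, had 974 and 1722 bp in H358, 1230 and 1463 in H2009, 1965 in HCC95, 1670 in BICR31 and none in either Ishikawa library. LY6K had 1359 to 1699 bp in the other 6 libraries and none in Ishikawa. FAM83A had 905 and 863 bp in H358, 723 and 1006 in H2009, 1724 in BICR31, and no peak in Ishikawa or HCC95. LY6E, in contrast, had no peak in either H2009 library, where H358 had 738 and 371 bp, HCC95 1946, Ishikawa 1261 and 483 and BICR31 623.

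**Figure D5:**
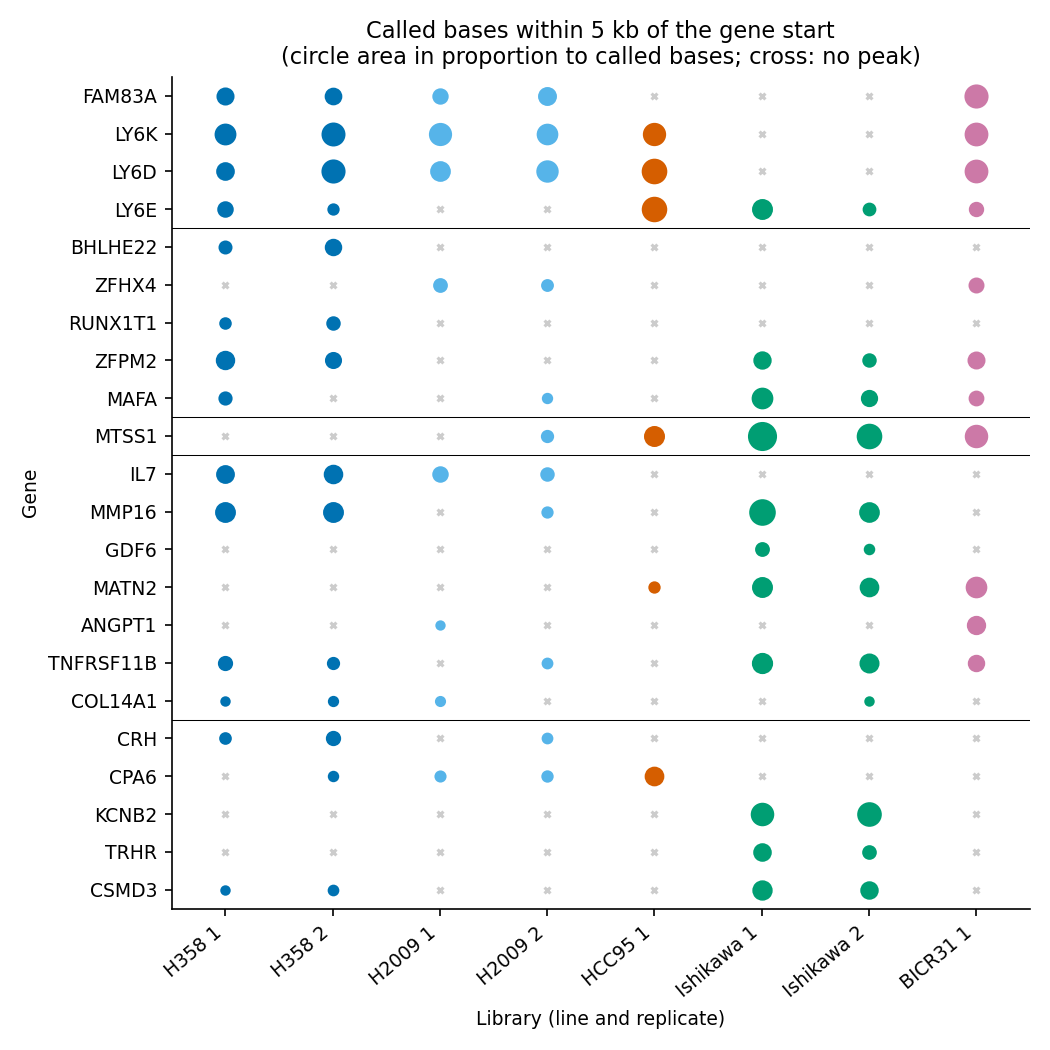
Bases under peaks within 5 kb of the start of the 22 listed genes that set lines apart, by library; circle area is in proportion to the bases called and a cross marks no peak. Horizontal lines separate the groups by role, from epithelial and surface genes at the top to tissue-restricted genes; LY6D and LY6K lack peaks in Ishikawa, and KCNB2 and TRHR have them there alone.

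Of 15 placed transcription and chromatin genes, 10 carried a peak in all 8 libraries. TRIB1, a pseudokinase that steers C/EBP factors to degradation, had 19 regions within 100 kb, the most of the 92 placed genes, and 733 to 3439 bp near its start. KLF10 and OSR2, both zinc finger factors, and HSF1, the heat shock factor, also had a peak in all 8. The other 5 set lines apart, and 2 of those were found in H358 alone. RUNX1T1 had 387 and 545 bp in the H358 libraries and BHLHE22, a neural repressor, 503 and 837, and neither had a peak in the other 6. ZFPM2 had 1063 and 797 bp in H358, 938 and 543 in Ishikawa and 897 in BICR31, and none in H2009 or HCC95. ZFHX4 had 571 and 411 bp in H2009 and 685 in BICR31, and none in H358, HCC95 or Ishikawa. MAFA, an activator of the insulin gene, had 1369 and 815 bp in Ishikawa and 667 in BICR31, 1 of 2 libraries with a peak in each lung adenocarcinoma line (521 and 304 bp) and none in HCC95. The genes ZFPM2, RUNX1T1 and ZFHX4 lay in windows where H358 and H2009 differed in the same direction. The peaks at these starts are themselves counted in the windows, so part of that is built in. MTSS1, with no peak in H358, lay in a window that was higher in H358.

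Genes for secreted proteins, matrix and receptors varied most in number: 7 of 19 placed had a peak in all 8 libraries, 3 had none and 7 set lines apart. ASPH, a hydroxylase, FZD6, a Wnt receptor, and CTHRC1, a secreted collagen repeat protein, were among those found in all 8. RSPO2 and CCN4, of the Wnt pathway, and SULF1, a sulfatase of heparan chains, had no peak near the start in any library. Among ligands, IL7, a lymphocyte cytokine, had 991 and 1081 bp in H358 and 736 and 545 in H2009 and none in the other 3 lines. GDF6, of the BMP family, had 575 and 315 bp in Ishikawa alone. ANGPT1, a ligand of endothelial receptors, had 1052 bp in BICR31 and 241 in H2009 replicate 1.

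For receptors and proteases, TNFRSF11B, the decoy receptor osteoprotegerin, had 612 and 440 bp in H358, 335 in H2009 replicate 2, 1300 and 1141 in Ishikawa and 834 in BICR31, and none in HCC95. MMP16, a membrane-bound metalloproteinase, had 1249 and 1254 bp in H358, 2130 and 1226 in Ishikawa, 368 in H2009 replicate 2 and none in the 2 squamous lines. Of the matrix genes, MATN2, a matrilin, had no peak in the 4 lung adenocarcinoma libraries, 373 bp in HCC95, 1358 in BICR31 and 1263 and 1095 in Ishikawa. COL14A1 had 247 and 299 bp in H358, 290 in H2009 replicate 1 and 247 in Ishikawa replicate 2. EXT1, which builds heparan sulfate chains, had a peak in 1 library each of H358 and H2009 and in all libraries of the other 3 lines.

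Of 17 placed tissue-restricted genes none had a peak in all 8 libraries and 11 had none, among them the thyroglobulin gene TG and the adipocyte gene FABP4. The other genes were each found in few libraries. KCNB2, a potassium channel, had 1630 and 1801 bp in Ishikawa alone, and TRHR, a receptor for thyrotropin-releasing hormone, had 965 and 561 bp there alone. CSMD3, a large membrane protein, had 1181 and 951 bp in Ishikawa and 247 and 327 in H358. CRH, corticotropin-releasing hormone, had 397 and 617 bp in H358 and 332 in H2009 replicate 2, and 7 and 8 regions within 100 kb in H358 against 1 to 3 in the other 6 libraries. CPA6, a carboxypeptidase, had 357 and 374 bp in H2009, 309 in H358 replicate 2 and 1101 in HCC95. BICR31, with the longest list, had no peak at the start of any of the 17.

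Within their own lists the peaks of 8q ranked about as peaks did in general. The higher-ranked 50% of a list held 48.6% and 47.4% of the 8q peaks in H358 and 50.6% and 51.6% in H2009. It held 52.1% in HCC95, 47.5% in BICR31 and 47.6% and 49.9% in Ishikawa. The 95% Wilson intervals held 50 in all 8 libraries, for example 44.2 to 50.7 in H358 replicate 2. On 8p the share was between 38.9% and 49.9%, and it was below the 8q share in 7 of 8 libraries, all but BICR31. When H358 peaks were ranked by the authors' q-value in place of the fold, 57.4% and 55.9% of its 8q peaks lay in the higher-ranked 50%.

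The 4 further H2009 lists were short, with 1375 to 3250 peaks. On 8q they held 55 peaks in Empty, 87 in Control, 67 in the library labelled e3KRAB1 and 43 in the library labelled e3KRAB2. The peak names in that last list carry the tag Ctrl2, which goes against its label, so it may be a control library. These were 2.81%, 2.68%, 2.89% and 3.13% of each list. Of them, 92.7%, 93.1%, 94.0% and 97.7% lay in regions where untreated H2009 had a peak. On 8p they held 5, 6, 2 and 4 peaks. The scarcity of 8p peaks next to 8q peaks was thus also seen in the 4 further H2009 libraries, though with few peaks and no test.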

How the data were processed

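H3K27ac chromatin immunoprecipitation lists of 12 libraries were used, 8 of them in comparisons. Reads were aligned with BWA to hg19 per the submitters' processing notes; the peak caller and settings were not given in the sources used here, and lists appear to be per library. The deposited lists give a score, and the narrowPeak and broadPeak lists also the authors' fold (a ratio) and −log10 p and q values, and the narrowPeak lists the summit position, which was not used; the Ishikawa lists give only the authors' score. These values served only to rank peaks within a list. Of 233818 deposited peaks, 556 (0.238%) on other sequences were left out. Peaks were merged where they shared 1 bp, and log2((regions + 0.5)/(library total + 1)) was fitted with limma 3.58.1 (R 4.3.3), by line, at 24 features and in 2 Mb windows with at least 3 regions on average, over 7 contrasts, with a threshold of 0.05. Python 3.11.15 did the rest. On simulated windows for H358 minus the others (1357 windows), 0.691% of unchanged windows were called, and 18%, 58%, 92% and 98% of those changed 1.5-, 2-, 3- and 4-fold. The simulated counts were Poisson draws from a profile common to all lines, with no other spread between libraries. Changes were placed in fuller windows only. Real libraries may spread differently, so these rates need not hold for the real windows. No gene annotation of hg19 was used: gene starts were placed from background knowledge and kept where their spacing to neighbouring listed genes was within 5 kb of that in the RefSeq GRCh38.p14 gene table. Members and lists were chosen with earlier results of these data known. The text names genes that set lines apart and up to 4 further examples per group, by regions within 100 kb; regions by width and rank (up to 3 per line and per rule); and windows by p. Alternatives tried were the pseudocount, window size, filter, list part, list length, overlap rule, counting of peaks, the MYC stretch, and leaving out each library. A fit on the narrowPeak lists alone was added after seeing the data.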

Additional observations from a re-analysis of the deposited data

How the results depend on the processing

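For H358, Ishikawa and H358 minus H2009, the 8q share kept its direction and its side of the threshold under every setting run. Leaving out 1 library gave 0.35 to 0.44 for H358, -0.03 to 0.02 for H2009, -0.15 to -0.13 for HCC95, -0.35 to -0.28 for Ishikawa, -0.0028 to 0.04 for BICR31, 0.27 to 0.36 for H358 minus H2009 and -0.1416 to -0.1392 for HCC95 minus BICR31. With the higher-ranked 50% of each list, the differences were 0.079 for H2009 (now past the threshold), -0.039 for HCC95 and -0.0066 for HCC95 minus BICR31 (both no longer past it). With 50% of a region covered, they were -0.14 for BICR31 (reversed) and -0.092 for HCC95 minus BICR31 (not past it). The cause was not tested.

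Windows called, in the order H358, H2009, HCC95, Ishikawa, BICR31, H358 minus H2009 and HCC95 minus BICR31, ranged from 10 to 18, 0 to 7, 1 to 3, 4 to 20, 4 to 8, 0 to 12 and 1 to 4 with 1 library left out. Windows of 1 Mb (64 on 8q) gave 9 for H2009, 12 for BICR31 and 4 for H358 minus H2009, and windows of 4 Mb (20 on 8q) gave 11 for Ishikawa. Across the genome these fits called 21.8, 13.7, 9.75 and 45.2% of windows. The higher-ranked 50% gave 5 for H358, 0 for HCC95, 10 for Ishikawa, 0 for BICR31, 4 for H358 minus H2009 and 0 for HCC95 minus BICR31. In the same order it called 11.1, 4.08, 15.0, 3.91, 7.48 and 2.21% of windows across the genome. Lists of equal length gave 1 for HCC95, 2 for BICR31, 5 for H358 minus H2009 and 3 for HCC95 minus BICR31. The shares called across the genome were 21.4, 11.9, 20.2 and 9.74%. With 50% covered the counts were 0 for HCC95, 5 for Ishikawa, 1 for BICR31 and 0 for HCC95 minus BICR31. Across the genome 4.22, 11.1, 1.38 and 0.614% of windows were called. A pseudocount of 2 gave 4 for HCC95, with 22.1% called across the genome. Where these limma counts were 0, between 4 and 14 windows had an unadjusted p under 0.05.

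Line-specific shares, in the order H358, H2009, HCC95, Ishikawa and BICR31, were 6.67, 6.61, 13.6, 10.6 and 33.6% with the higher-ranked 50%, and 40.3, 22.1, 36.0, 34.6 and 59.8% with 50% covered. With lists of equal length they were 24.1% for HCC95 and 27.1% for BICR31. With 1 library left out they ranged from 11.8 to 25.1, 3.86 to 13.4, 17.7 to 28.3, 19.1 to 27.9 and 38.0 to 42.9%. The 8q part of both arms ranged from 70.1 to 72.9, 79.6 to 84.6, 65.0 to 65.1, 63.6 to 64.4 and 71.08 to 71.12%. It was 79.9% for H358 and 90.6% for H2009 with 50% covered, and 89.4% for H2009 and 69.2% for HCC95 with the higher-ranked 50%. The higher-ranked 25% of a list held 24.7 and 23.5% of 8q peaks in H358, 28.3 and 27.6% in H2009, 24.9% in HCC95, 21.9% in BICR31 and 21.5 and 23.1% in Ishikawa. By q-value the higher-ranked 50% held 57.4 and 55.9% in H358.

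Libraries with the same number did not deviate together: correlations over 1355 windows were 0.101, -0.01 and -0.05 for the 3 pairs of lines. With the replicate number as a block, H358 minus H2009 was 0.32 (limma adjusted p = 3.27e-06) with 12 windows called, against 0.32 (limma adjusted p = 0.000228) with 11 for the same 6 libraries without the block. The narrowPeak lists alone gave 0.31 (limma adjusted p = 0.000576) and 8 windows. Peak lists without read counts give no depth, so a weak region and a missed one cannot be told apart.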
